A study of Mus musculus with 16 samples.

Results

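Time of day (TOD) was compared within LPS-treated mouse cortex, in the 10 mice of a 16-mouse series whose sample titles name LPS: 5 injected at ZT13 (ZT13 LPS) and 5 injected at ZT1 (ZT1 LPS). ZT is zeitgeber time, the hours since lights came on, so ZT1 is early in the rest phase of a mouse and ZT13 early in its active phase. All mice were wild-type C57Bl6 males 2 months old, and all 10 received lipopolysaccharide at 2 mg/kg into the peritoneum on 2 consecutive days before the cortex was taken on the next day. The remaining 6 mice received PBS on the same schedule, 3 at each time, and served as the background for TOD without LPS. Injection and tissue collection were at the same TOD within a group, so effects of the time of injection and of the time of collection cannot be told apart. Total RNA was depleted of ribosomal RNA and sequenced, and the deposited values are CPM, the reads on a gene scaled so that all genes of a library share 1 fixed total. The question was which transcripts differed in the cortex between evening and morning LPS exposure.

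LPS is a component of the outer membrane of Gram-negative bacteria. It is bound by CD14 and signals through TLR4 to NF-kappaB, which switches on genes for cytokines, chemokines, acute phase proteins and leukocyte adhesion molecules. In the brain, the endothelial cells of small vessels, held together by claudin and cadherin junctions and anchored to a basement membrane of type IV collagen, laminin and nidogen, form the blood-brain barrier (BBB) and face the blood, and pericytes, astrocyte endfeet and perivascular macrophages lie behind them. The molecular clock, in which BMAL1 and CLOCK drive the Per, Cry and Nr1d genes through E-boxes, runs in most of these cells, and glucocorticoids, which dampen NF-kappaB signalling, peak in mice around the onset of the active phase.

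The smallest step between CPM values corresponded to 21439681 to 29112758 reads on genes in the 10 LPS libraries, and the depth of both groups overlapped. Gfap, the intermediate filament of reactive astrocytes, matched the titles, at 111 to 123 CPM in the 6 mice titled PBS and 572 to 1134 CPM in the 10 titled LPS, whereas in 12 of the 16 samples another label, a treatment entry, names the other injection (PBS in 6 samples titled LPS), and the titles were followed. The tested markers of cortical neurons summed 9343 to 9926 CPM per ZT1 LPS mouse and 9402 to 9849.7 CPM per ZT13 LPS mouse. Markers of choroid plexus, a tissue next to the dissected one, varied widely in both groups and summed 20.6 to 893 CPM per ZT1 LPS mouse and 40.6 to 611 CPM per ZT13 LPS mouse. On the first principal component of the 10 LPS libraries (26.2% of the variance), ZT1 LPS replicate 1 lay at -10.8, among the ZT13 LPS mice (-16.8 to 4.07) and away from ZT1 LPS replicates 2, 3 and 5 (12.9 to 27.0), with ZT1 LPS replicate 4 at 1.24. On the second component (16.9%), ZT1 LPS replicate 2 lay at 30.9 and the other 9 mice at -16.0 to 6.09. Values are given also without ZT1 LPS replicate 1, but that mouse was chosen for lying among the ZT13 LPS mice, so leaving it out favours a larger difference, and the larger counts and medians without it are a description and no support. Nothing in the labels says that mice of a group were housed or processed separately, so p-values measure the spread between these samples.

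At a Benjamini-Hochberg adjusted p under 0.05 in limma, 4 of 18859 genes (0.0212%) were DEGs between ZT13 LPS and ZT1 LPS. Of these, 2 rose and 2 fell at ZT13, 0.0106% of genes in each direction. Col4a2 was among those that rose, and Fmod and Fam205a2 fell. At an unadjusted p under 0.05 stood 1998 genes (10.6%), of which 1447 (7.67%) were higher at ZT13 and 551 (2.92%) lower. The median log2 fold change over all genes was 0.013, and 10482 genes had a value above 0. The 5 values of each group did not overlap for 292 genes higher at ZT13 (1.55%) and 77 lower (0.408%).

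The number of DEGs depended on which mice entered the fit and how they were weighted. Without ZT1 LPS replicate 1 there were 345 DEGs (1.83%), 317 of them higher at ZT13 (1.68%), and without ZT1 LPS replicate 2 there were 20, whereas without ZT1 LPS replicate 3, ZT13 LPS replicate 3 or ZT13 LPS replicate 4 limma called 0, beside 1610, 1663 and 1571 genes at an unadjusted p under 0.05. Sample quality weights, which let limma count variable libraries less, gave 225 DEGs (1.19%), 203 higher (1.08%) and 22 lower. A single fit of all 16 samples, which takes the spread from PBS mice too, gave 122 (0.647%), 114 higher and 8 lower. The weights were lowest for ZT1 LPS replicates 2 (0.451) and 1 (0.614). They were estimated from the spread of these same mice around their group means and count mice far from that mean less. Calls with the weights are therefore a description and no support, here and below.

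**Figure D1:**
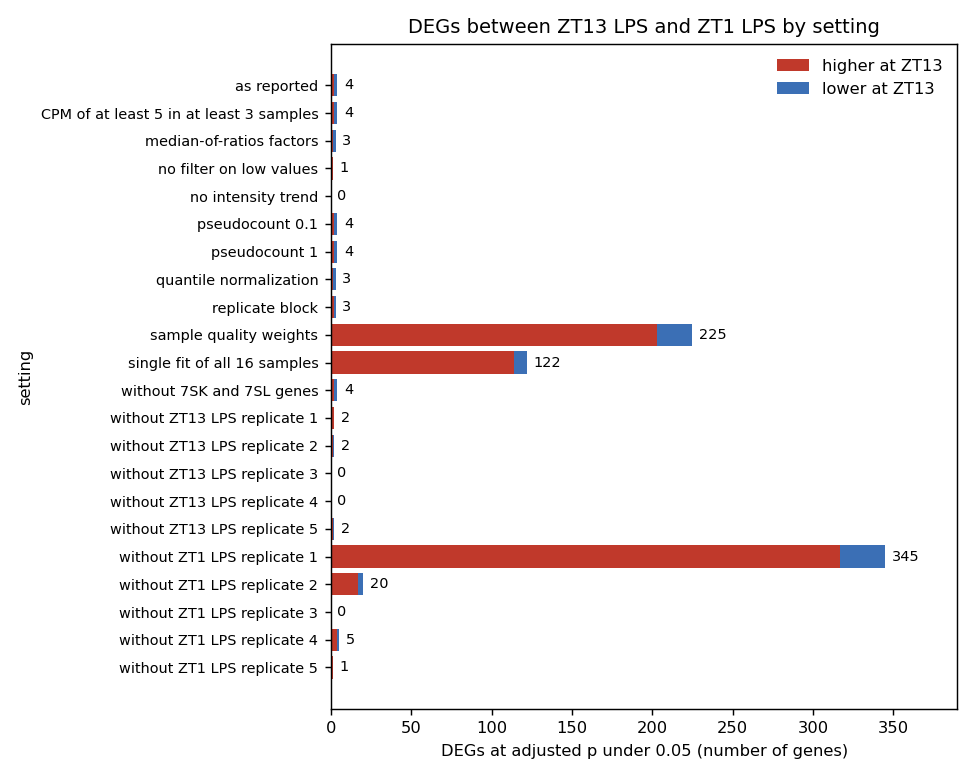
Number of DEGs (horizontal axis, genes at adjusted p under 0.05) between ZT13 LPS and ZT1 LPS as reported and under each other setting (vertical axis), with red for genes higher at ZT13 and blue for genes lower. The count is 4 as reported, 225 with sample quality weights, 122 in the single fit and 345 without ZT1 LPS replicate 1, and it is 20 or fewer elsewhere.

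**Figure D2:**
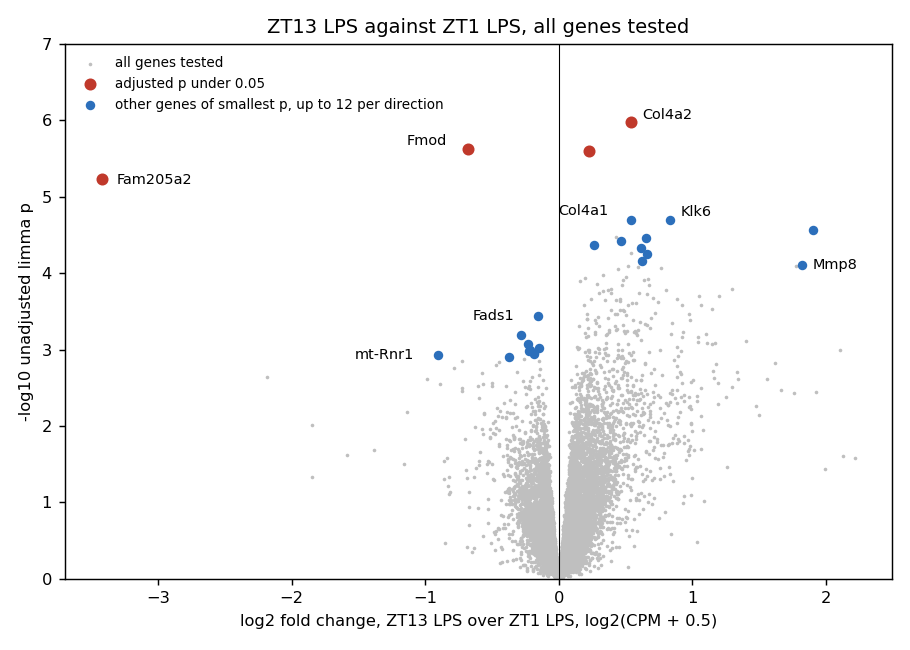
Log2 fold change of ZT13 LPS over ZT1 LPS (horizontal axis) against -log10 of the unadjusted limma p (vertical axis) for 18859 genes. Red points are the 4 DEGs, and blue points are the other genes with the smallest p in each direction. Mmp8 has a log2 fold change of 1.82 without passing the adjustment.

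Col4a2 and Col4a1, the chains of the type IV collagen that scaffolds vascular basement membranes, had near-identical differences. Col4a2 was at 149.9, 124, 139, 139 and 119 CPM in ZT1 LPS replicates 1 to 5 and at 175, 192, 193, 209.8 and 208 CPM in ZT13 LPS replicates 1 to 5. Every ZT13 LPS mouse lay above every ZT1 LPS mouse, and the fold change was 1.46 (log2 fold change 0.54, SE 0.065, adjusted p = 0.0159, limma). The exact permutation p was 0.0079, the smallest that 5 mice against 5 allow. Every gene without overlap has this value, and Col4a2 was picked from all genes by its p, so it is no further support. Col4a1 was at 167, 116, 134, 144 and 117 CPM at ZT1 and 178, 193, 200.4, 208 and 198 CPM at ZT13. Its groups did not overlap either, with ZT1 LPS replicate 1 the highest of its group, and the log2 fold change of 0.54 (SE 0.084) had an adjusted p of 0.0634, which is not past the threshold. In PBS mice the sign was the opposite. Col4a2 was at 78.6, 88 and 85.6 CPM in ZT1 PBS and 64.9, 62.3 and 69.7 CPM in ZT13 PBS (log2 fold change -0.36, adjusted p = 0.0337, limma), and Col4a1 at 58.2, 66.1 and 60.5 CPM in ZT1 PBS and 44.3, 45.6 and 49.5 CPM in ZT13 PBS (log2 fold change -0.40, adjusted p = 0.0306, limma). The log2 fold change by TOD was higher with LPS than with PBS by 0.90 (SE 0.10, adjusted p = 0.00075) for Col4a2 and 0.94 (SE 0.13, adjusted p = 0.00378) for Col4a1 (limma, interaction, the LPS minus the PBS log2 fold change). Both genes were named for a small p with LPS. The interaction contains that LPS difference, so the choice favours it. The Col4a2 call was kept in 8 of 11 other settings and 7 of 10 fits without 1 mouse, with adjusted p from 0.000725 to 0.282.

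Col4a1 and Col4a2 lie head to head on chromosome 8 and are read in opposite directions from start sites that overlap by 22 bases, shown here because this is the stretch the pair shares at its starts. In RefSeq (GRCm38.p6), Col4a2 starts at 11312805 on the plus strand and Col4a1 at 11312826 on the minus strand, and the bases between both starts, on the plus strand and inclusive, are
chr8:11312805-11312826: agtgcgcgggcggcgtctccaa
In the GENCODE M21 annotation Col4a2 runs from 11312805 to 11449287 and Col4a1 from 11198423 to 11312826.

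Fmod, fibromodulin, a small proteoglycan that binds collagen fibrils, fell at ZT13. It was at 13.2, 11.6, 11.7, 12.8 and 14.4 CPM at ZT1 and 7.17, 7.0, 7.84, 7.69 and 9.22 CPM at ZT13, with no overlap (log2 fold change -0.68, SE 0.086, adjusted p = 0.0159, limma). In PBS mice it averaged 23.7 ± 3.82 CPM at ZT1 and 21.4 ± 2.4 CPM at ZT13, and the interaction of -0.54 did not pass (adjusted p = 0.213, limma). The Fmod call was kept in 9 of 11 other settings and 4 of 10 fits without 1 mouse (adjusted p from 0.00512 to 0.282, limma).

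The call for Fam205a2 is uncertain, because it belongs to a cluster of near-identical copies between which reads can be split. The called copy, annotated on an unplaced scaffold, was at 13.4, 1.59, 7.11, 6.5 and 9.81 CPM in the ZT1 LPS mice and at 0, 1.32, 0, 0 and 0 CPM in the ZT13 LPS mice (log2 fold change -3.42, adjusted p = 0.0276, limma). Summed over the 5 Fam205a copies in the table, the values were 20.1, 20.9, 21.3, 23.1 and 29.4 CPM at ZT1 and 25.9, 26.1, 21.3, 25.9 and 27.7 CPM at ZT13. The groups overlapped, and the summed means of 23 ± 3.76 and 25.4 ± 2.39 CPM differed by 2.43 CPM (two-sided exact permutation p = 0.254).

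**Figure D3:**
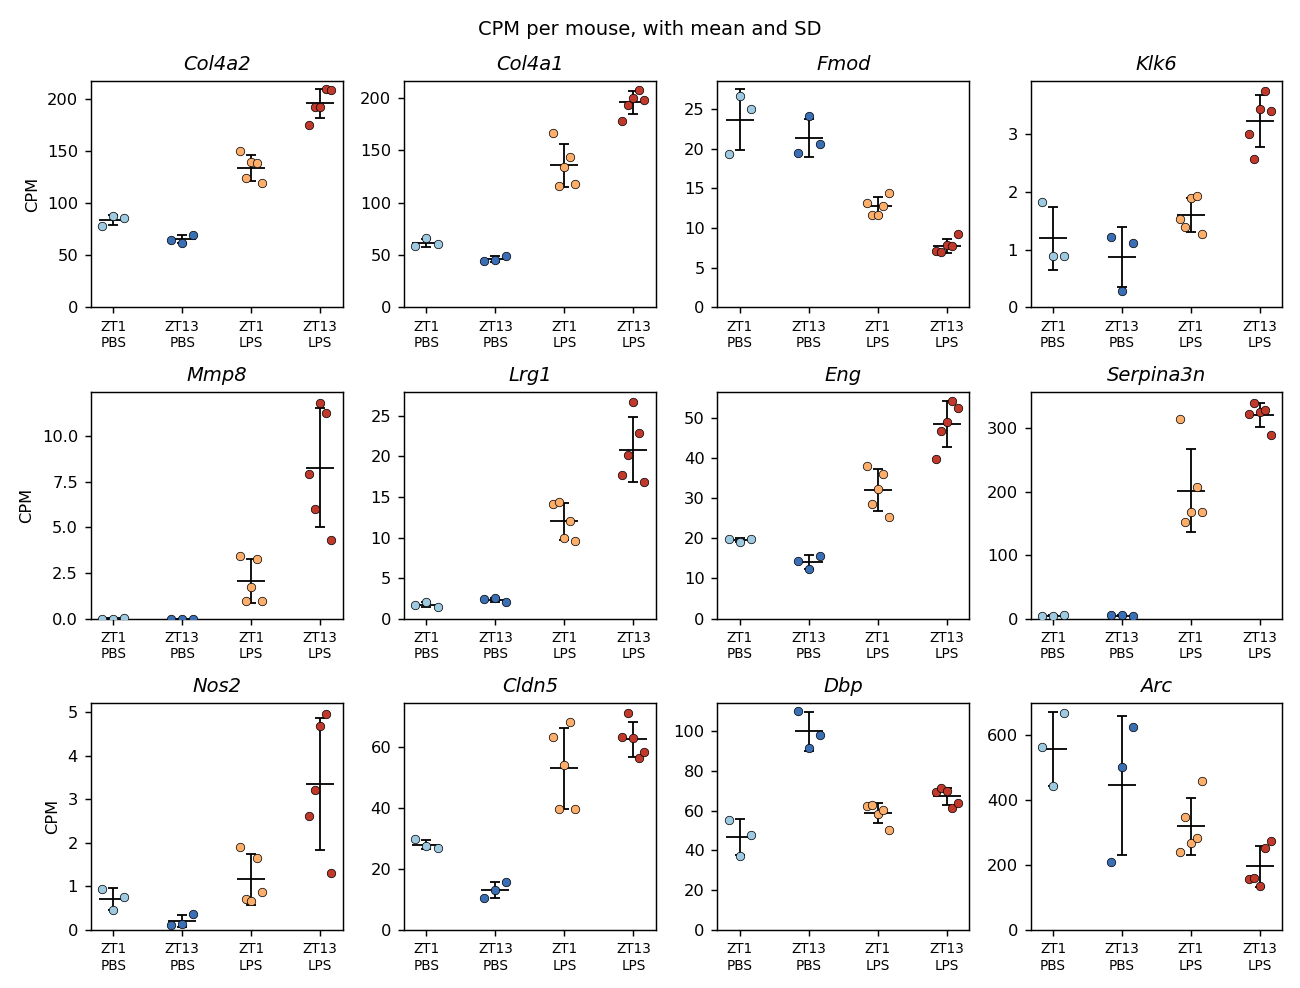
CPM (vertical axes, from 0) of 12 genes in each mouse of the 4 groups (horizontal axes), with the mean as a long bar and the SD between mice as whiskers (n = 3 for PBS, n = 5 for LPS). Col4a2 and Fmod separate ZT13 LPS from ZT1 LPS, while in Serpina3n the highest ZT1 LPS mouse, replicate 1, is at 314 CPM, inside the ZT13 LPS range.

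Endothelial genes leaned higher at ZT13. Of the endothelial identity list (23 tested of 23 listed), 14 were higher and 0 lower at an unadjusted p under 0.05, beside backgrounds of 7.67% and 2.92%, and the median log2 fold change was 0.33. None was a DEG in the fit of all 10 mice, and 7 were called with sample quality weights (background 1.08%). Without ZT1 LPS replicate 1 the median was 0.41, with 7 called higher (background 1.68%). In PBS mice the median was -0.17, and the log2 fold change by TOD was higher with LPS in 6 members past the interaction threshold (background 0.122%). Whether there were more endothelial cells or more RNA per cell cannot be told apart in bulk cortex.

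Eng, endoglin, a co-receptor for TGF-beta family ligands in endothelium, was at 38, 28.6, 32.2, 36 and 25.4 CPM at ZT1 LPS and 39.8, 46.7, 49, 54.3 and 52.4 CPM at ZT13 LPS. The groups did not overlap (log2 fold change 0.60, SE 0.11, adjusted p = 0.0796, limma), although ZT1 LPS replicate 1 and ZT13 LPS replicate 1 lay close. The interaction for Eng was 1.06 (SE 0.16, adjusted p = 0.0107, limma), with PBS means of 19.6 ± 0.437 CPM at ZT1 and 14.1 ± 1.66 CPM at ZT13. Egfl7, a secreted protein of vascular sprouts, was at 26.2, 21.1, 29.1, 25.2 and 24.1 CPM at ZT1 and 31, 37.9, 34.3, 35.1 and 36.1 CPM at ZT13, again without overlap (log2 fold change 0.47, adjusted p = 0.0718, limma). Robo4, a guidance receptor that stabilises vessels, averaged 9.9 ± 1.46 CPM at ZT1 and 14.2 ± 1.06 CPM at ZT13 (log2 fold change 0.51, adjusted p = 0.0852, limma), and Notch4, the Notch receptor of endothelium, 16.3 ± 2.66 CPM at ZT1 and 25.1 ± 2.78 CPM at ZT13 (log2 fold change 0.61, adjusted p = 0.0745, limma). Rhoj, a small GTPase of endothelium, averaged 7.58 ± 1.37 CPM at ZT1 and 11.8 ± 0.954 CPM at ZT13 (log2 fold change 0.62, adjusted p = 0.0796, limma). The 5 values of each group did not overlap in any of these 5 genes, and none passed the adjustment. These genes were named for their small p, which favours groups without overlap. Of the 23 genes of the endothelial identity list, 7 were higher and 0 lower without overlap (over all genes 1.55% and 0.408%).

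Among junction genes the direction was mixed. Of the tight and adherens junction list (18 tested of 18 listed), 4 were higher and 1 lower at an unadjusted p under 0.05 (over all genes 7.67% and 2.92%), with a median of 0.038. Cdh5, VE-cadherin, the main cadherin of endothelial adherens junctions, averaged 26.6 ± 1.83 CPM at ZT1 and 34 ± 4.12 CPM at ZT13, with ZT13 LPS replicate 1 at 27 CPM inside the ZT1 range (log2 fold change 0.34, adjusted p = 0.14, limma). Cldn5, the claudin that seals brain endothelium, was at 63.4, 39.7, 54.2, 68.4 and 39.7 CPM at ZT1 LPS and 63.5, 71.4, 63.1, 56.4 and 58.6 CPM at ZT13 LPS. These groups overlapped, ZT1 LPS being the more variable (log2 fold change 0.27, adjusted p = 0.535, limma). In PBS mice Cldn5 fell from 28 ± 1.52 CPM at ZT1 to 13 ± 2.57 CPM at ZT13 (log2 fold change -1.10, adjusted p = 0.00846, limma). The interaction passed for Cldn5, at 1.36 (adjusted p = 0.0127), and for Cdh5, at 0.67 (adjusted p = 0.0364, limma). Cldn12, another claudin, averaged 30.2 ± 1.43 CPM at ZT1 and 25.9 ± 1.49 CPM at ZT13, with no overlap (log2 fold change -0.22, adjusted p = 0.14, limma), and Vasp, which elongates actin filaments at junctions, averaged 16.2 ± 3.35 CPM at ZT1 and 23.4 ± 3.4 CPM at ZT13 (log2 fold change 0.53, adjusted p = 0.142, limma). BBB transporters (17 tested of 17 listed) had 2 members higher and 0 lower at an unadjusted p under 0.05, near the shares over all genes, and a median of -0.0022. Slc2a1, the glucose transporter of brain endothelium, had the smallest p of these and averaged 118 ± 13.4 CPM at ZT1 and 137 ± 8.5 CPM at ZT13 (log2 fold change 0.22, adjusted p = 0.248, limma), and in PBS mice it rose at ZT13 (log2 fold change 0.49, adjusted p = 0.0394, limma).

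Leukocyte adhesion receptors of endothelium held no DEG. Selp, P-selectin, which captures rolling leukocytes, was at 5.13, 2.94, 3.74, 3.35 and 5.56 CPM at ZT1 LPS and 5.66, 8.23, 9.01, 9.38 and 14.2 CPM at ZT13 LPS, and Icam1, which arrests them, at 18.6, 20.03, 18.8, 14.1 and 16.4 CPM at ZT1 and 24.9, 23.1, 22.7, 22.5 and 27.9 CPM at ZT13. Neither gene's groups overlapped, and neither passed the adjustment. The log2 fold change was 1.05 for Selp (adjusted p = 0.0877) and 0.46 for Icam1 (adjusted p = 0.0877, limma). Ackr1, the atypical chemokine receptor of venules, averaged 46.6 ± 2.81 CPM at ZT1 and 55.2 ± 4.96 CPM at ZT13 (log2 fold change 0.24, adjusted p = 0.18, limma). Over the 8 tested genes of that list, 3 were higher and 0 lower at an unadjusted p under 0.05, the threshold for the next counts too (over all genes 7.67% and 2.92%). The caveola list, covering vesicles that carry cargo across endothelium, had 2 higher and 0 lower of 8. Ehd2, an ATPase at the caveolar neck, averaged 20.02 ± 2.44 CPM at ZT1 and 25.9 ± 1.61 CPM at ZT13 without overlap (log2 fold change 0.37, adjusted p = 0.103, limma). In the angiogenic tip cell list, 4 of 12 were higher and 1 was lower. The lower member was Vegfa, the main endothelial growth factor, at 38.2 ± 4.65 CPM at ZT1 and 30.5 ± 2.37 CPM at ZT13 (log2 fold change -0.31, adjusted p = 0.176, limma), while Apln, a tip cell peptide, averaged 5.46 ± 2.24 CPM at ZT1 and 9.56 ± 1.71 CPM at ZT13 (log2 fold change 0.83, adjusted p = 0.204, limma).

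Of the matrix and matrix receptor lists, Col4a2 and Fmod were the DEGs. Of 43 tested collagens, 8 were higher and 0 lower at an unadjusted p under 0.05 (over all genes 7.67% and 2.92%), with a median of 0.084 that became 0.14 without ZT1 LPS replicate 1. Col20a1 averaged 6.69 ± 0.782 CPM at ZT1 and 9.52 ± 0.723 CPM at ZT13, without overlap (log2 fold change 0.48, adjusted p = 0.0852, limma). Of the laminins and nidogens, 5 of 13 were higher and 0 lower. Nid1, nidogen, which joins laminin to type IV collagen, was at 24.9, 22.3, 21.3, 22.8 and 20.4 CPM at ZT1 LPS and 26.4, 28.6, 28.9, 30.5 and 26.7 CPM at ZT13 LPS, with no overlap (log2 fold change 0.33, adjusted p = 0.0852, limma). Lamc1, the laminin gamma chain of most basement membranes, averaged 70.3 ± 2.9 CPM at ZT1 and 78.1 ± 1.36 CPM at ZT13, also without overlap (log2 fold change 0.15, adjusted p = 0.14, limma). Itga5, the alpha chain of the fibronectin receptor, was the integrin with the smallest p, at 11.8, 11.6, 9.55, 8.96 and 8.97 CPM at ZT1 and 14.6, 17, 16.9, 19.6 and 13.6 CPM at ZT13 without overlap (log2 fold change 0.66, adjusted p = 0.0718, limma), and 8 of 24 integrins were higher and 0 lower. Dcn, decorin, of the same proteoglycan family as Fmod, averaged 26.2 ± 3.19 CPM at ZT1 and 34.4 ± 2.45 CPM at ZT13 (log2 fold change 0.39, adjusted p = 0.0877, limma), and Bgn, biglycan, 15.7 ± 2.19 CPM at ZT1 and 18.5 ± 0.87 CPM at ZT13 (log2 fold change 0.24, adjusted p = 0.315, limma). Annexins, which bind membranes in the presence of calcium, had 4 of 9 higher and 0 lower, led by Anxa2 at 21.4 ± 4.41 CPM at ZT1 and 32.4 ± 3.36 CPM at ZT13 (log2 fold change 0.61, adjusted p = 0.0877, limma).

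Proteases of matrix and blood cells held no DEG. Klk6, a secreted serine protease, was at 1.54, 1.39, 1.89, 1.93 and 1.27 CPM at ZT1 and 3.01, 2.58, 3.44, 3.75 and 3.4 CPM at ZT13, without overlap (log2 fold change 0.83, adjusted p = 0.0634, limma). Mmp8, the collagenase of neutrophil granules, was at 3.45, 0.94, 1.72, 3.26 and 0.952 CPM at ZT1 LPS and 7.93, 6.02, 11.8, 11.3 and 4.3 CPM at ZT13 LPS, again without overlap, and at or under 3 reads in every PBS mouse (log2 fold change 1.82, SE 0.33, adjusted p = 0.0796, limma). Mmp9, a gelatinase that degrades type IV collagen, averaged 7.83 ± 4.06 CPM at ZT1 and 17 ± 4.44 CPM at ZT13 (log2 fold change 1.15, adjusted p = 0.131, limma), and its inhibitor Timp1 13 ± 4.41 CPM at ZT1 and 24.4 ± 4.34 CPM at ZT13 (log2 fold change 0.92, adjusted p = 0.089, limma). Of 22 tested matrix proteases and inhibitors, 7 were higher and 0 lower at an unadjusted p under 0.05 (over all genes 7.67% and 2.92%), with a median of -0.0033. Mmp25, a member of this list, was under 1 CPM in most ZT1 LPS mice (median 0.584 CPM, against 1.20 CPM at ZT13). Where it is counted, its place is no support. Pfn1, profilin, which feeds actin polymerisation, averaged 113 ± 5.88 CPM at ZT1 and 135 ± 6.31 CPM at ZT13 (log2 fold change 0.26, adjusted p = 0.0731, limma).

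Innate immune lists held many members with higher values at ZT13 and none past the adjustment. Acute phase genes had 7 of 7 tested (of 12 listed) higher at an unadjusted p under 0.05 (background 7.67%), with a median of 0.77. Lcn2, lipocalin, which starves bacteria of iron, was at 326, 202, 165, 170.3 and 107 CPM at ZT1 LPS and 333, 308, 406, 418 and 278 CPM at ZT13 LPS. Serpina3n, a protease inhibitor of reactive astrocytes and endothelium, was at 314, 152, 167, 207 and 168 CPM at ZT1 and 323, 339, 325, 328 and 288 CPM at ZT13. In both genes only ZT1 LPS replicate 1 entered the ZT13 LPS range, and without it the log2 fold change of Serpina3n was 0.89 in place of 0.72 (adjusted p = 0.000602 in place of 0.099, limma, with adjusted p from 0.000602 to 0.389 over all settings). Lrg1, a secreted glycoprotein of inflamed vessels, was at 14.2, 14.4, 9.89, 12 and 9.56 CPM at ZT1 and 17.7, 20.2, 26.7, 22.9 and 16.8 CPM at ZT13 without overlap (log2 fold change 0.77, adjusted p = 0.0796, limma). In PBS mice the median of the acute phase list was 0.084.

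Among genes that sense LPS, Cd14, the LPS co-receptor, was at 4.76, 1.61, 3.43, 6.34 and 3.85 CPM at ZT1 LPS and 7.4, 8.47, 8.72, 10.5 and 9.22 CPM at ZT13 LPS, without overlap (log2 fold change 1.15, SE 0.24, adjusted p = 0.0958, limma). Of the 14 tested LPS receptor and Toll-like receptor genes, 8 were higher and 0 lower at an unadjusted p under 0.05 (over all genes 7.67% and 2.92%), with a median of 0.38. Tlr6, a member of this list, was under 1 CPM in most ZT1 LPS mice (median 0.565 CPM, against 1.23 CPM at ZT13). Where it is counted, its place is no support. Tlr13, a receptor for bacterial ribosomal RNA, averaged 5.1 ± 1.53 CPM at ZT1 and 7.94 ± 1.17 CPM at ZT13 (log2 fold change 0.62, adjusted p = 0.181, limma), and Irak4, the kinase below MYD88, 4.65 ± 0.884 CPM at ZT1 and 6.24 ± 0.646 CPM at ZT13 (log2 fold change 0.40, adjusted p = 0.223, limma). Sigirr, which is outside that list, a receptor that restrains interleukin 1 and Toll-like receptor signalling, was at 1.49, 1.25, 1.55, 1.33 and 1.27 CPM at ZT1 and 2.13, 2.41, 2.43, 2.39 and 3.04 CPM at ZT13, without overlap (log2 fold change 0.66, adjusted p = 0.0754, limma).

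In the cytokine and NF-kappaB feedback list, 12 of 20 tested genes were higher and 0 lower at an unadjusted p under 0.05 (over all genes 7.67% and 2.92%), with a median of 0.33 against -0.12 in PBS mice. Il1r2, the decoy receptor for interleukin 1, had the largest difference, at 2.8, 1.61, 1.13, 2.42 and 0.68 CPM at ZT1 LPS and 7.17, 4.68, 11.4, 9.21 and 3.49 CPM at ZT13 LPS. Its groups did not overlap (log2 fold change 1.78, SE 0.32, adjusted p = 0.0796, limma). Socs3, a feedback inhibitor of STAT3 signalling, was at 16, 10.5, 13.6, 15.9 and 9.97 CPM at ZT1 and 17.1, 21.6, 21.1, 23.1 and 18 CPM at ZT13, without overlap (log2 fold change 0.61, adjusted p = 0.108, limma). Nfkbia, the inhibitor that NF-kappaB itself induces, averaged 29.1 ± 3.53 CPM at ZT1 and 37.8 ± 3.76 CPM at ZT13 (log2 fold change 0.37, adjusted p = 0.113, limma). Tnf itself was low, at 0.56, 0.134, 0.206, 0.42 and 0.363 CPM at ZT1 and 0.797, 1.55, 1.34, 1.33 and 0.537 CPM at ZT13 (log2 fold change 0.92, adjusted p = 0.116, limma), and in PBS mice it was at or under 3 reads. Tnf thus passed the filter only through the ZT13 LPS mice, where it was high, and its place among the 12 is no support. Il1rn was also under 1 CPM in most ZT1 LPS mice (median 0.671 CPM, against 1.95 CPM at ZT13). Where it is counted, its place is no support either. Of the chemokines, 4 of 12 tested were higher and 0 lower, with Cxcl1, which attracts neutrophils, at 1.87 ± 0.488 CPM at ZT1 and 2.87 ± 0.533 CPM at ZT13 (log2 fold change 0.52, adjusted p = 0.224, limma), and Cxcl5 was below the filter.

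Genes for reactive oxygen and nitric oxide production had 8 of 9 tested members higher and 0 lower at an unadjusted p under 0.05 (over all genes 7.67% and 2.92%), with a median of 0.58 that became 0.67 without ZT1 LPS replicate 1. Nos2, the inducible nitric oxide synthase, was at 1.91, 0.716, 0.653, 1.65 and 0.861 CPM at ZT1 LPS and 2.61, 3.22, 4.7, 4.96 and 1.3 CPM at ZT13 LPS. The groups overlapped through ZT13 LPS replicate 5 and the highest ZT1 LPS mice (log2 fold change 1.18, SE 0.30, adjusted p = 0.156, limma). Nos2 was under 1 CPM in most ZT1 LPS mice and above it in every ZT13 LPS mouse. Its passing of the filter leaned on the ZT13 LPS mice, and its place among the 8 is no support. Ncf1, a cytosolic subunit of the phagocyte NADPH oxidase, was at 26.9, 19.5, 18.6, 23.8 and 16.7 CPM at ZT1 and 33.6, 28, 35, 34.1 and 27.1 CPM at ZT13, without overlap (log2 fold change 0.58, adjusted p = 0.089, limma), and Cybb, its membrane subunit, averaged 11.8 ± 7.5 CPM at ZT1 and 20.8 ± 4.14 CPM at ZT13 (log2 fold change 0.99, adjusted p = 0.27, limma). Complement genes had 10 of 17 higher and 0 lower, with a median of 0.24. C1s1, the protease of the classical pathway, averaged 4.13 ± 0.847 CPM at ZT1 and 6.4 ± 0.86 CPM at ZT13 without overlap (log2 fold change 0.59, adjusted p = 0.113, limma), and its interaction of 1.22 passed (adjusted p = 0.0364, limma). C5ar1, the receptor for C5a, averaged 7.03 ± 1.55 CPM at ZT1 and 10.7 ± 2.39 CPM at ZT13 (log2 fold change 0.57, adjusted p = 0.208, limma).

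Interferon genes held no member below that unadjusted threshold. Of 21 interferon-stimulated genes, 0 were higher and 0 lower at an unadjusted p under 0.05 (over all genes 7.67% and 2.92%), with a median of -0.0088. In so few genes a count of 0 is not far from these shares. The list summed higher in LPS than in PBS mice at both times (329 to 447 CPM at ZT1 and 234 to 583 CPM at ZT13, against 78.9 to 90.3 and 77.4 to 77.9 CPM in PBS mice). The ZT13 LPS mice spread from -0.78 to 0.57 on the mean log2 scale relative to the ZT1 LPS mean, with replicate 5 lowest. Ifit3, an antiviral effector, averaged 24.3 ± 3.55 CPM at ZT1 and 19.9 ± 6.05 CPM at ZT13 (log2 fold change -0.32, adjusted p = 0.591, limma). Of the MHC class I genes, 12 of 12 had a log2 fold change above 0, as did 10482 of all 18859 genes, with a median of 0.23, and 1 was higher at an unadjusted p under 0.05, a share near the 7.67% over all genes. H2-D1, a class I heavy chain, averaged 139 ± 24.8 CPM at ZT1 and 182 ± 48.3 CPM at ZT13 (log2 fold change 0.37, adjusted p = 0.451, limma).

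**Figure D4:**
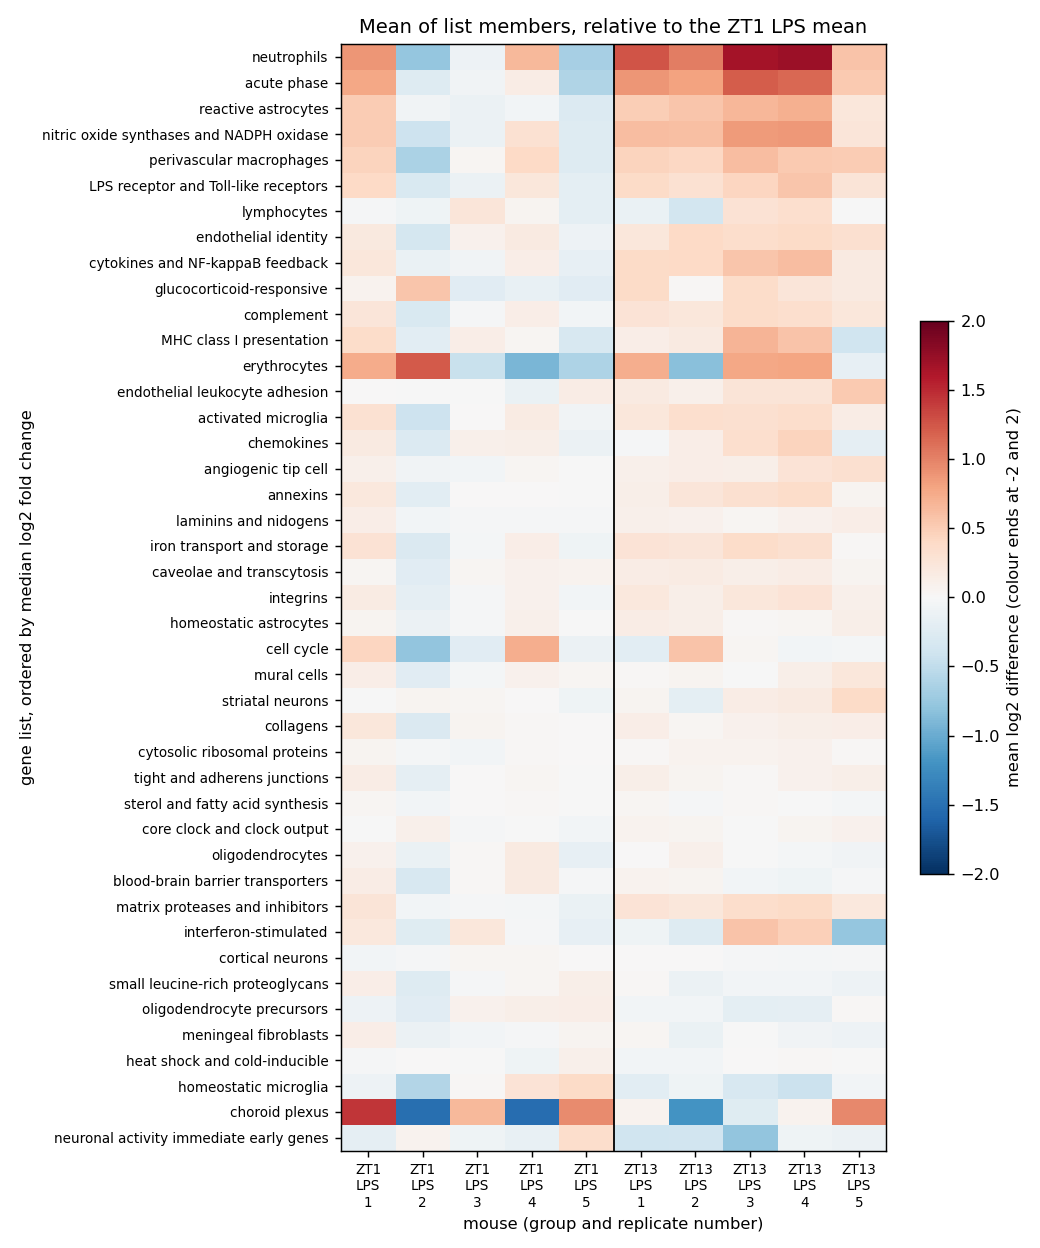
Mean over the tested members of each gene list (vertical axis, ordered by the list's median log2 fold change) in each LPS mouse (horizontal axis), as a colour for the log2(CPM + 0.5) difference from the mean of the 5 ZT1 LPS mice. ZT1 LPS replicate 1 is at 0.89 for neutrophil genes, 0.77 for acute phase genes and 0.51 for reactive astrocyte genes, within the ZT13 LPS ranges of 0.56 to 1.70, 0.53 to 1.20 and 0.23 to 0.70. ZT1 LPS replicate 4, at 0.65, is within the ZT13 LPS range for neutrophil genes too.

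Markers of blood-borne and resident cells were measured beside these groups. Neutrophil genes had the highest median of all lists, 1.26, with 9 of 10 tested (of 15 listed) higher and 0 lower at an unadjusted p under 0.05 (over all genes 7.67% and 2.92%) and 6 called higher without ZT1 LPS replicate 1 (over all genes 1.68%). The tested neutrophil genes summed 20.5 to 96.2 CPM per ZT1 LPS mouse and 67.8 to 167 CPM per ZT13 LPS mouse, against 6.51 to 6.74 and 5.09 to 6.0 CPM in PBS mice. The defining markers Ly6g, Mpo and Elane did not pass the filter and reached at most 0.152, 0.265 and 0.168 CPM in any LPS mouse. Retnlg, a secreted product of neutrophils, averaged 2.37 ± 1.21 CPM at ZT1 and 5.61 ± 1.5 CPM at ZT13 (log2 fold change 1.17, adjusted p = 0.131, limma). Mmp8 and Mmp9 above are members of this list, and the part of neutrophil content in the values of other genes was not tested. Perivascular macrophage genes had 3 of 7 tested higher, with a median of 0.51. Stab1, a scavenger receptor of macrophages and sinusoidal endothelium, was at 76.2, 57.4, 67.4, 84.8 and 61.8 CPM at ZT1 and 84, 106, 93.4, 92 and 118 CPM at ZT13, with overlap (log2 fold change 0.51, adjusted p = 0.099, limma), and Siglec1, a sialic acid receptor, averaged 13 ± 5.44 CPM at ZT1 and 22.6 ± 2.27 CPM at ZT13 (log2 fold change 0.89, adjusted p = 0.196, limma). Erythrocyte genes, a sign of residual blood, summed 6.16 to 35.8 CPM per ZT1 LPS mouse and 6.6 to 25 CPM per ZT13 LPS mouse, with no member at an unadjusted p under 0.05. Of 12 lymphocyte genes only 3 passed the filter, among them Ighm, the IgM heavy chain, at 6.1 ± 2.32 CPM at ZT1 and 2.8 ± 1.14 CPM at ZT13 (log2 fold change -0.99, adjusted p = 0.184, limma).

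Reactive astrocyte genes were higher at ZT13 at an unadjusted p under 0.05 in 12 of 15 members and lower in 0 (over all genes 7.67% and 2.92%), with a median of 0.59 that became 0.74 without ZT1 LPS replicate 1. Lcn2, Serpina3n and Steap4 are members of the acute phase list too, and Timp1 of the matrix protease list. The counts of these lists are therefore not separate results. Gfap was at 945, 572, 671, 802 and 665 CPM at ZT1 LPS and 977, 1087, 1134, 1076 and 791 CPM at ZT13 LPS. The groups overlapped (log2 fold change 0.48, SE 0.12, adjusted p = 0.167, limma), and PBS means were 116 ± 6.4 and 118 ± 4.14 CPM. Homeostatic astrocyte genes had 5 of 12 higher and a median of 0.11, with Slc1a3, a glutamate transporter, at 393 ± 41 CPM at ZT1 and 444 ± 17.4 CPM at ZT13 (log2 fold change 0.18, adjusted p = 0.269, limma). Homeostatic microglia genes had 0 higher and 3 lower of 14 and a negative median of -0.13. Their sums overlapped, at 249 to 429 CPM per ZT1 LPS mouse and 309 to 364 CPM per ZT13 LPS mouse. Siglech, a marker of resting microglia, averaged 1.78 ± 0.528 CPM at ZT1 and 0.833 ± 0.369 CPM at ZT13 (log2 fold change -0.78, adjusted p = 0.17, limma), and 7.0 ± 0.223 and 6.52 ± 0.614 CPM in PBS mice. Activated microglia genes had 6 of 16 tested higher at that threshold. Msr1, a scavenger receptor, was at 10.9, 6.31, 6.22, 7.84 and 3.76 CPM at ZT1 and 11.9, 12.3, 15.3, 18.2 and 11.5 CPM at ZT13 without overlap (log2 fold change 0.98, adjusted p = 0.103, limma), and Tyrobp, the signalling adaptor of TREM2, averaged 10.04 ± 2.69 CPM at ZT1 and 14.5 ± 1.63 CPM at ZT13 (log2 fold change 0.54, adjusted p = 0.199, limma).

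Cortical neuron genes had 1 higher and 1 lower of 13 at an unadjusted p under 0.05 (over all genes 7.67% and 2.92%), with a median of -0.022, and oligodendrocyte genes 0 higher and 1 lower of 11, with a median of 0.017. Of other cell markers, mural cell genes had 2 higher and 0 lower of 12 (median 0.10), meningeal fibroblast genes 1 higher and 3 lower of 15 (median -0.082), striatal neuron genes 2 higher and 0 lower of 8 (median 0.089) and oligodendrocyte precursor genes 0 higher and 0 lower of 7 (median -0.079). Immediate early genes, which neurons transcribe within minutes of activity, leaned lower at ZT13, with 9 of 16 lower at an unadjusted p under 0.05 (background 2.92%), 0 higher, and a median of -0.33. Arc, which trims synaptic glutamate receptors, was at 239, 346, 266, 281 and 456 CPM at ZT1 LPS and 157, 159, 133, 250.1 and 274 CPM at ZT13 LPS, with overlap (log2 fold change -0.73, adjusted p = 0.199, limma). Fos, a subunit of the AP-1 factor, averaged 42.7 ± 9.68 CPM at ZT1 and 27.9 ± 6.25 CPM at ZT13 (log2 fold change -0.61, adjusted p = 0.191, limma) and Egr2, a zinc finger factor, 15 ± 3.85 CPM at ZT1 and 8.12 ± 2.88 CPM at ZT13 (log2 fold change -0.89, adjusted p = 0.191, limma). In PBS mice Arc was at 561, 441 and 667 CPM at ZT1 and 209, 501 and 623 CPM at ZT13, and the list's PBS median was -0.28. No interaction passed in this list.

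Metabolic and housekeeping lists held no DEG. Iron transport and storage genes had 6 higher and 1 lower of 13 tested at an unadjusted p under 0.05 (over all genes 7.67% and 2.92%). Fth1, the heavy chain of the iron store ferritin, was at 1527, 1223, 1379, 1482 and 1333 CPM at ZT1 LPS and 1619, 1778, 1852, 1671 and 1611 CPM at ZT13 LPS, without overlap (log2 fold change 0.30, adjusted p = 0.0877, limma), and Slc11a1, which pumps metal ions out of phagosomes, averaged 7.68 ± 2.85 CPM at ZT1 and 15.1 ± 3.23 CPM at ZT13 (log2 fold change 0.97, adjusted p = 0.099, limma). Cytosolic ribosomal protein genes, whose reads can be shared with many processed pseudogenes, had 32 higher and 1 lower of 86 and a median of 0.08. Sterol and fatty acid synthesis genes had 3 higher and 2 lower of 19, and cell cycle genes 0 and 0 of 15. Among single genes lower at ZT13, Fads1, a desaturase for polyunsaturated fatty acids, was at 145, 147, 148, 142 and 148 CPM at ZT1 and 135, 129, 127, 127 and 138 CPM at ZT13, without overlap (log2 fold change -0.16, adjusted p = 0.101, limma), with an interaction of -0.28 (adjusted p = 0.0127, limma). Ptgds, prostaglandin D synthase of meninges and choroid plexus, averaged 560.2 ± 45 CPM at ZT1 and 477 ± 27.2 CPM at ZT13, without overlap (log2 fold change -0.23, adjusted p = 0.132, limma), beside the uneven choroid plexus markers given above.

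Clock genes, a readout of TOD, were compared in LPS and in PBS mice. All 20 were tested, with 0 DEGs in limma, 4 higher and 2 lower at an unadjusted p under 0.05 (over all genes 7.67% and 2.92%). None had groups without overlap, where 1.55% and 0.408% of all genes did. In PBS mice, 6 rose and 1 fell at ZT13 by adjusted p in limma, against a background of 0.302% and 0.217% of genes. The median absolute log2 fold change of the list was 0.30 in PBS and 0.063 in LPS mice, beside 0.084 and 0.066 over all genes, and it was smaller with LPS in 18 of 20 clock genes and in 10736 of all 18859 genes. The comparison in LPS mice rests on 10 samples and the comparison in PBS mice on 6, with none shared.

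Dbp, a clock output factor that binds D-boxes, was at 62.2, 63, 58.3, 60.5 and 50.1 CPM at ZT1 LPS and 69.7, 71.6, 69.99, 61.5 and 64 CPM at ZT13 LPS. In PBS mice it was at 55.5, 37.3 and 47.6 CPM at ZT1 and 111, 91.5 and 98 CPM at ZT13. The LPS groups overlapped, and every LPS mouse lay below every ZT13 PBS mouse. The log2 fold change was 0.20 (SE 0.064) with LPS and 1.10 (SE 0.12) with PBS, and the interaction was -0.91 (SE 0.14, adjusted p = 0.0107, limma). Ciart, a repressor of BMAL1 and CLOCK, was at 20.8, 20.2, 13.2, 14 and 12.6 CPM in ZT1 LPS, 22.2, 17.5, 18.7, 19.7 and 20.2 CPM in ZT13 LPS, 11.4, 9.78 and 11.5 CPM in ZT1 PBS and 25.8, 31.6 and 34.8 CPM in ZT13 PBS. Its interaction was -1.14 (SE 0.21, adjusted p = 0.0295, limma). For Nr1d2, the nuclear receptor REV-ERB beta, the interaction was -0.40 (SE 0.075, adjusted p = 0.0364, limma), with a log2 fold change of -0.019 with LPS and 0.39 with PBS. Arntl, which encodes BMAL1, had 33.6 ± 2.95 CPM at ZT1 and 30.2 ± 2.26 CPM at ZT13 with LPS and 39.1 ± 0.455 and 25.7 ± 1.67 CPM with PBS, and its interaction of 0.45 did not pass (adjusted p = 0.0995, limma). The interaction passed in 3 of 20 clock genes, all with the ZT13 over ZT1 difference lower with LPS (background 0.0371%). For the other 17 a difference between LPS and PBS is not shown.

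The E-box CACGTG, the element bound by BMAL1 and CLOCK, reads the same on both strands and was searched in the 250 bases before each gene's start in RefSeq promoters (GRCm38.p6). It was found in 6 of the 23 promoters of clock genes and in 6.02% of all 32851 promoters. The clock genes that hold it, 5 of the 17 with a promoter entry, are Bhlhe41, Ciart, Cry1, Per1 and Tef. The windows below are those of these genes that hold an E-box, in capitals, outside annotated exons. They are shown because this element is a textbook part of the clock, and a match in a window is a description only.
Ciart, chr3:95882289-95882394, minus strand: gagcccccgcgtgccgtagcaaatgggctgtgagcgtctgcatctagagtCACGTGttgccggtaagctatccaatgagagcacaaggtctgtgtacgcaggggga
Per1, chr11:69098733-69098838, plus strand: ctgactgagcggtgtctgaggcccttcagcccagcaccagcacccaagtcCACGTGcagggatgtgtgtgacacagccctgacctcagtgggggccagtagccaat
Tef, chr15:81811226-81811331, plus strand: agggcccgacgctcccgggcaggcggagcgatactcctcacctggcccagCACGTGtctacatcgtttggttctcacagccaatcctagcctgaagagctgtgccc
The E-box of the Ciart window lies 116 to 111 bases before the start, that of Per1 166 to 161, and that of Tef 138 to 133 before its downstream start. With LPS the log2 fold change was 0.30 for Ciart, 0.021 for Per1 and 0.011 for Tef, and with PBS 1.45, 0.34 and 0.26. The promoters of Dbp and Nr1d2, whose interaction also passed, hold no CACGTG in this window.

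**Figure D5:**
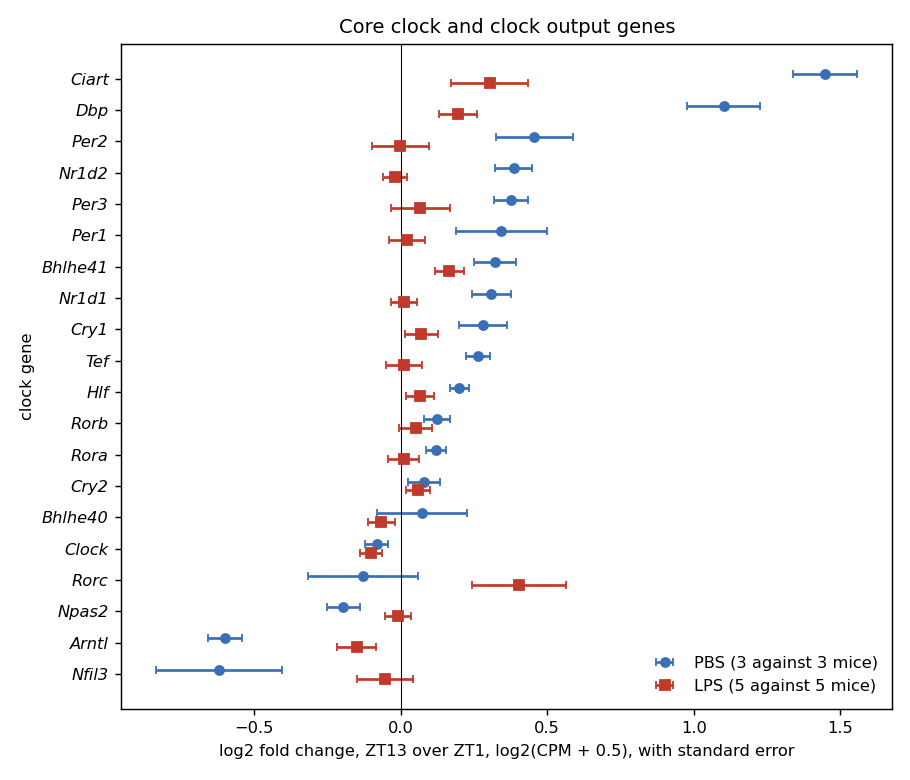
Log2 fold change of ZT13 over ZT1 (horizontal axis, with the limma standard error) for each clock gene (vertical axis) in PBS mice (blue circles, 3 against 3) and LPS mice (red squares, 5 against 5). Red points sit nearer to 0 than blue points in 18 of 20 genes (10736 of 18859 over all genes), and Dbp, Ciart and Nr1d2 pass the test of the difference.

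Glucocorticoid-responsive genes had 4 of 18 members higher and 1 lower at ZT13 at an unadjusted p under 0.05 with LPS (over all genes 7.67% and 2.92%), with a median of 0.24, and 8 DEGs higher with PBS (over all genes 0.302%), with a median of 0.48. Nfkbia, which NF-kappaB induces and which is counted in the cytokine list above, is among the 4 higher with LPS. Fkbp5, a chaperone partner of the glucocorticoid receptor that its activation induces, was at 81.6, 134, 71.1, 73.9 and 60.2 CPM at ZT1 LPS and 119, 90.5, 125, 108 and 110.2 CPM at ZT13 LPS. ZT1 LPS replicate 2 was the highest mouse of its group and lay above every ZT13 LPS mouse (log2 fold change 0.44, adjusted p = 0.349, limma), while in PBS mice Fkbp5 rose at ZT13 (25, 22.1 and 23.3 against 36.6, 52.5 and 45.4 CPM, log2 fold change 0.91, adjusted p = 0.0121, limma). Over the whole list, ZT1 LPS replicate 2 was 0.55 from the ZT1 LPS mean on the log2 scale and the other ZT1 LPS mice -0.23 to 0.063. Hif3a, a hypoxia-inducible factor subunit, was at 25.9, 23.9, 15.5, 21.9 and 18 CPM in ZT1 LPS, 33.9, 24.7, 31.9, 27.8 and 30.4 CPM in ZT13 LPS, 3.75, 4.0 and 3.96 CPM in ZT1 PBS and 14.8, 18.5 and 18.3 CPM in ZT13 PBS. Its interaction of -1.50 (SE 0.19, adjusted p = 0.00264, limma) was past the threshold, and no other gene of that list passed.

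Of the 98 genes that were DEGs by TOD in PBS mice (0.52% of genes, 57 higher and 41 lower at ZT13), 79 had the same sign with LPS, beside 10185 of all 18859 genes. The absolute log2 fold change was smaller with LPS in 95, beside 10736 of all genes, with a median of 0.38 in PBS and 0.12 in LPS mice. These genes were chosen for their PBS difference, which favours a larger PBS value. It also favours an interaction, which contains the same PBS difference. Of them 25 had an unadjusted p under 0.05 with LPS (background 10.6%), 1 was a DEG with LPS, Col4a2 with the opposite sign, and 13 passed the interaction (over all genes 0.122% above 0 and 0.0371% below).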

How the data were processed

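RNA from 16 cortices was measured, 5 ZT1 LPS, 5 ZT13 LPS, 3 ZT1 PBS and 3 ZT13 PBS, grouped by sample title. The authors deposited CPM of genes in GRCm38. The submitters' notes name DRAGEN 4.0.3-8 and bcl2fastq, and the counting settings are not given in the sources used here. Of 55774 table lines, 287 repeated lines were removed. In the LPS libraries 80.8% to 82.5% of values of up to 20 reads were whole multiples of 1 step (tolerance 0.01), so reads were not recovered for a count test. Genes at 1 CPM or more in at least 3 samples entered limma 3.58.1 (R 4.3.3) with an intensity trend on log2(CPM + 0.5), and fold changes on that scale understate changes of low genes. A low gene could pass this filter through a single group in which it was high, so list counts of low genes lean towards that group. The LPS and PBS comparisons were fitted separately and the interaction on all 16 samples, with Benjamini-Hochberg adjustment over all genes. A level at or under 3 reads was taken as the detection floor, which covers counting error only. Genes named are the DEGs, the 12 with the smallest p in each direction (not clone or model names, mean of 1 CPM or more), the genes the study measured by name, all clock genes and the 3 with the smallest p of every other list. The members and lists were chosen with earlier results of these data known. Some genes belong to several lists, so the counts of different lists are not independent. Of the DEGs, 1 is not reported here. The pipeline was tested on simulated data in which all mice had the same spread. That test does not cover mice of unequal spread, such as those measured here. The alternatives were pseudocounts of 0.1 and 1, no filter, a filter at 5 CPM, median-of-ratios and quantile scaling, no trend, sample quality weights, the replicate number as a block, a single fit, leaving out each mouse and, added after seeing the data, scaling without 7SK and 7SL genes. Positions are from GENCODE M21 and RefSeq GRCm38.p6. Tables were prepared in Python 3.11.15 with pandas 2.3.3, numpy 2.4.6 and matplotlib 3.10.9.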

Additional observations from a re-analysis of the deposited data

Results flagged for a closer look

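For each named gene the highest and lowest mouse of each LPS group was compared with its neighbours by Dixon's test, and 17 of 316 groups held a mouse apart from the other 4, where chance gives 15.8. ZT1 LPS replicate 1 was the mouse apart in 5 of them. It was at 79 CPM for Rims4, 27.8 CPM for Cxcl12, 31.8 CPM for Dcn, 75.3 CPM for Lamc1 and 3.22 CPM for Lgals3. ZT1 LPS replicate 2 stood apart in Cry2 at 183 CPM, in Fkbp5 at 134 CPM and in Rgs9, a striatal marker, at 27.6 CPM. The others of the ZT1 LPS group were Ackr1 at 41.7 CPM in replicate 3, mt-Rnr1 at 38.4 CPM in replicate 4 and Acaca at 117 CPM in replicate 5. In the ZT13 LPS group, replicate 5 stood apart in Hlf at 248 CPM, Cavin1 at 44 CPM and Pdgfrb at 38.2 CPM, replicate 1 in Cdh5 at 27 CPM, replicate 2 in Fam205a2 at 1.32 CPM and replicate 3 in Pfn1 at 146 CPM.

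The TOD difference itself differed between LPS and PBS mice in 13 of the named genes, by an interaction past an adjusted p of 0.05 in limma. The LPS minus PBS difference in log2 fold change was above 0 in 8 of them, 1.36 for Cldn5, 1.22 for C1s1, 1.06 for Eng, 0.94 for Col4a1, 0.90 for Col4a2, 0.69 for Egfl7, 0.67 for Cdh5 and 0.47 for Cxcl12. It was below 0 in 5, -1.50 for Hif3a, -1.14 for Ciart, -0.91 for Dbp, -0.40 for Nr1d2 and -0.28 for Fads1. The naming rule, which takes in all clock genes and the smallest p of every list, decided which of the 30 genes past the threshold are given here. Over all genes, 0.122% passed above 0 and 0.0371% below. Many named genes were chosen for a small p with LPS. The interaction contains the same LPS difference, so that choice favours an interaction, and the count of 13 is a description only.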

How the results depend on the processing

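The count of 4 DEGs between ZT13 LPS and ZT1 LPS became 1 without a filter on low values, 0 without the intensity trend (1891 genes at an unadjusted p under 0.05 in limma), 225 with sample quality weights and 122 in the single fit, and ran from 0 to 345 when 1 mouse was left out, highest without ZT1 LPS replicate 1 and 0 without ZT1 LPS replicate 3, ZT13 LPS replicate 3 or ZT13 LPS replicate 4. With pseudocounts of 0.1 and 1, a filter at 5 CPM, and 7SK and 7SL genes left out it was 4, and with median-of-ratios or quantile scaling 3. The count of 98 in PBS mice became 65 without a filter, 158 with a filter at 5 CPM, 199 with quantile scaling, 3 without the trend, 43 in the single fit, and 12 to 87 without 1 mouse, lowest without ZT1 PBS replicate 2. The 30 interaction genes became 12 without a filter, 11 without the trend, 124 with sample quality weights, and 7 to 104 without 1 mouse, lowest without ZT13 PBS replicate 2 and highest without ZT1 LPS replicate 1. The cause of these shifts was not tested. Same-numbered ZT1 and ZT13 LPS mice correlated at -0.042 to 0.33 in their deviations from the group means and differently numbered ones at -0.21 to 0.15, and 1 of 5 ZT1 LPS mice was closest to its own number, so the numbers were not taken as pairs. With the replicate number as a block the counts were 3 for LPS, 57 for PBS and 25 for the interaction.

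Of 3302 values of the 158 genes chosen by the naming rule under these settings, 3062 kept their direction and side of the threshold, 176 passed it newly, 34 lost it (all in the 4 DEGs) and 30 changed sign. The sign of near-zero genes was not stable. With median-of-ratios scaling the log2 fold change was -0.00048 for Nr1d1, -0.0032 for Rora and -0.0018 for Tef, and with sample quality weights -0.013 for Nr1d1. Without 1 mouse it ran from -0.0021 to 0.18 for Per3, -0.095 to 0.017 for Nfil3, -0.044 to 0.0017 for Nr1d2, -0.021 to 0.063 for Per1, -0.0053 to 0.039 for Nr1d1, -0.041 to 0.012 for Npas2, -0.022 to 0.048 for Rora, -0.037 to 0.070 for Tef, -0.073 to 0.074 for Per2, -0.0014 to 0.23 for Mcm5, -0.022 to 0.44 for Hbb-bt and -0.75 to 0.026 for Folr1. Of 645 list medians, 33 changed sign. At this depth the detection floor of 3 reads lay at 0.103 to 0.14 CPM in the LPS libraries, and Tnf in ZT1 LPS replicate 2 did not exceed it.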
